A study of Mus musculus with 6 samples.

Results

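Genes whose products limit growth or signal stress to other cells were described in cultured mouse oligodendrocyte progenitor cells (OPCs), the precursors from which myelinating oligodendrocytes arise. They were chosen by name and number 8: the secreted factors Gdf15, Fgf21 and Stc2, the sestrins Sesn1, Sesn2 and Sesn3, the mTORC1 inhibitor Ddit4 and the lipoprotein receptor Vldlr. All 8 are among the 18743 genes of the deposited tables, with 10 of the 26421 annotated transcripts. The hemin group holds 3 samples of wild type C57BL/6 OPCs given 50 µM hemin, which is heme with its iron oxidised, for 12 h. The vehicle group holds 3 samples of the same cells given 0.25% DMSO for 12 h. Cells of both groups came from the cortex of newborn pups of postnatal days 0 to 2 (labelled postnatal day 1), were pulled out with magnetic beads against CD140 (PDGFRα) and were grown for 3 days before exposure. The series concerns ferroptosis, a death of cells through iron-driven lipid oxidation, in OPCs after bleeding into the brain. Whether samples of a group came from separate cultures or litters is not given, so each p-value covers the spread among these samples alone, and that spread may be technical.

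Cells short of amino acids, loaded with misfolded protein or oxidised slow their growth by holding back mTORC1, the kinase complex that promotes translation. Sestrins bind the GATOR2 complex and so keep mTORC1 away from its activators, the Rag GTPases. DDIT4, also called REDD1, acts through the TSC complex, which switches off the mTORC1 activator Rheb. GDF15, FGF21 and STC2 leave the cell: GDF15 signals through GFRAL and RET, FGF21 through FGF receptors with the co-receptor beta-klotho, and STC2 inhibits the protease PAPP-A, which frees insulin-like growth factors. VLDLR takes up apolipoprotein E-rich particles and, with ApoER2, receives reelin in the developing cortex. Several of these genes are known targets of ATF4, the transcription factor of the integrated stress response, and Sesn1 and Sesn2 also of p53.

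Promoters are shown for the 4 members with a match to an ATF4 or antioxidant element, to show where it lies. Gdf15 and Ddit4, whose hemin libraries also lay above all vehicle libraries, had no such match. Capitals mark matches to TGATGNAA, the element bound by ATF4 with C/EBP partners, in Fgf21 and Vldlr, and to TGACNNNGC, the core of the antioxidant response element, in Sesn2 and Stc2. Each window runs from 250 bases before to 50 after an annotated start in RefSeq (GRCm38.p6), written 5′ to 3′ on the strand of the gene.
Fgf21, minus strand, chr7:45615441-45615740: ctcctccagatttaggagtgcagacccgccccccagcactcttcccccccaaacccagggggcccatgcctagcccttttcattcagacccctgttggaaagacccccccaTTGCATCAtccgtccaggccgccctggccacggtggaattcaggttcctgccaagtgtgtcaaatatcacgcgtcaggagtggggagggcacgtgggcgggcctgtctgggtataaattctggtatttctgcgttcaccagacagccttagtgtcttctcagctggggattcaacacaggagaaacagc
Vldlr, downstream of its 2 starts, plus strand, chr19:27216770-27217069: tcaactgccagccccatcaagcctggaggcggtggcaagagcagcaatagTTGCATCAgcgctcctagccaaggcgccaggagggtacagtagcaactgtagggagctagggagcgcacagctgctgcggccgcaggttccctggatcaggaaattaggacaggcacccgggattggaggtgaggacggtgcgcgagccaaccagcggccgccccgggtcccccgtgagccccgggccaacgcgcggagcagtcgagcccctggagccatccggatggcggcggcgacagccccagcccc
Sesn2, minus strand, chr4:132510407-132510706: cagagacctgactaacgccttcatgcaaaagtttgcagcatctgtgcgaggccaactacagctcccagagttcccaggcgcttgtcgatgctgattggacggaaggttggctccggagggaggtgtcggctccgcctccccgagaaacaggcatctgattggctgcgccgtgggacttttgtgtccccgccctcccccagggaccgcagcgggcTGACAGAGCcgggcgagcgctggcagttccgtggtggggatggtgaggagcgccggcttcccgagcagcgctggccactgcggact
Stc2, minus strand, chr11:31370012-31370311: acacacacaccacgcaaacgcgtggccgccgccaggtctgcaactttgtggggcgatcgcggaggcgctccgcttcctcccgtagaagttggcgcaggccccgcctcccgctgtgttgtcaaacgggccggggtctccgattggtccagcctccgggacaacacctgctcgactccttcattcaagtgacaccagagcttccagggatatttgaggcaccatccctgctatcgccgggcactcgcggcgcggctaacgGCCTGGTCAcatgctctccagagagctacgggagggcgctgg

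The 8 genes had 11 windows in this table. Searched on both strands, TGATGNAA matched in 2 of the 11 windows and in 3.97% of all 32851 windows. Both matches read TTGCATCA on the strand of the gene, with the first base at position -139 from the start in Fgf21 and -200 in Vldlr. TGACNNNGC matched in 2 windows, against 12.4% of all. ACGTG, the core of the hypoxia response element, matched in Fgf21, Gdf15 and Ddit4, against 19.6% of all windows, and in Fgf21 and Gdf15 it lay inside CACGTG, the E-box found in 7.15% of all. GTAAACA, a FoxO-type element, matched at the upstream start of Sesn1, against 3.65% of all windows. These matches are letters in a window and were not tested as binding sites.

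The libraries held 6463460 to 6523639 expected counts with hemin and 6339966 to 6390691 with vehicle, expected counts being RSEM's estimates of reads per transcript. By the quasi-likelihood test of edgeR over 12779 genes, 2072 were higher and 2005 lower with hemin at a Benjamini-Hochberg adjusted p below 0.05. With libraries scaled by totals alone these numbers were 1715 and 2582. Leaving out vehicle replicate 1 left 2597 calls in all, and leaving out vehicle replicate 2 left 2551. Of the progenitor markers, 9 of 10 fell, and their summed level was 390.1 to 595 FPKM with hemin and 1210 to 1460 FPKM with vehicle. Fewer cells of a type and less RNA per cell cannot be told apart in these bulk samples. FPKM is the level scaled by transcript length and library size.
Markers of other cells were also present. Astrocyte markers summed to 379.5 to 514.2 FPKM with hemin and 458.7 to 550.1 with vehicle, with 1 of 8 higher and 3 lower. Neuron markers summed to 96.1 to 145 FPKM with hemin and 195.8 to 229.4 with vehicle, with 3 of 9 lower. Microglia markers summed to 33.4 to 36.03 FPKM with hemin and 21.0 to 30.1 with vehicle, with 1 of 6 tested higher. Endothelial markers summed to 5.02 to 6.03 FPKM with hemin and 1.23 to 1.77 with vehicle, with 3 of 4 tested higher. Those 3, Pecam1, Kdr and Tek, had only 13, 26 and 5 counts over the vehicle libraries. Cldn5 (3 counts over the hemin and 3 over the vehicle libraries) and Cdh5 (17 and 8) did not pass the filter on low counts. Markers of pericytes and fibroblasts summed to 4.02 to 11.7 FPKM with hemin and 3.27 to 7.37 with vehicle, none of 4 tested called. Markers of myelinating cells summed to 26.9 to 39.5 FPKM with hemin and 34.5 to 58.7 with vehicle, 1 of 4 tested lower, with Mog listed in no library and Mobp in no vehicle library. The part of these cells in the results below was not tested.

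Of the 7 members that passed the filter on low counts, 4 rose with hemin (Gdf15, Stc2, Sesn2 and Vldlr) and 2 fell (Sesn1 and Sesn3), while Ddit4 was not called. Over all genes tested the share called was 31.9%, with 16.2% higher and 15.7% lower. The median log2 fold change was 1.20 over these 7, the value of Vldlr, and 0.00 over all genes tested. The scaling of libraries holds most genes near 0. With totals alone the log2 fold changes shifted by a median of -0.09. Gdf15 passed the filter through the hemin libraries only. Fgf21 did not pass the filter and was seen with hemin alone. At similar library totals, hemin libraries listed 16711 to 16890 genes and vehicle libraries 15383 to 15495. More genes were thus seen with hemin in general, and the share seen with hemin alone was not tested. In FPKM the 3 hemin libraries lay entirely above the 3 vehicle libraries for 6 members and entirely below for the other 2, a separation that 49.1% of all genes tested also had, 21.5% with hemin above and 27.5% with hemin below. Fgf21, counted among the 6, is not among the genes tested, and was at 0 in every vehicle library.

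**Figure D1:**
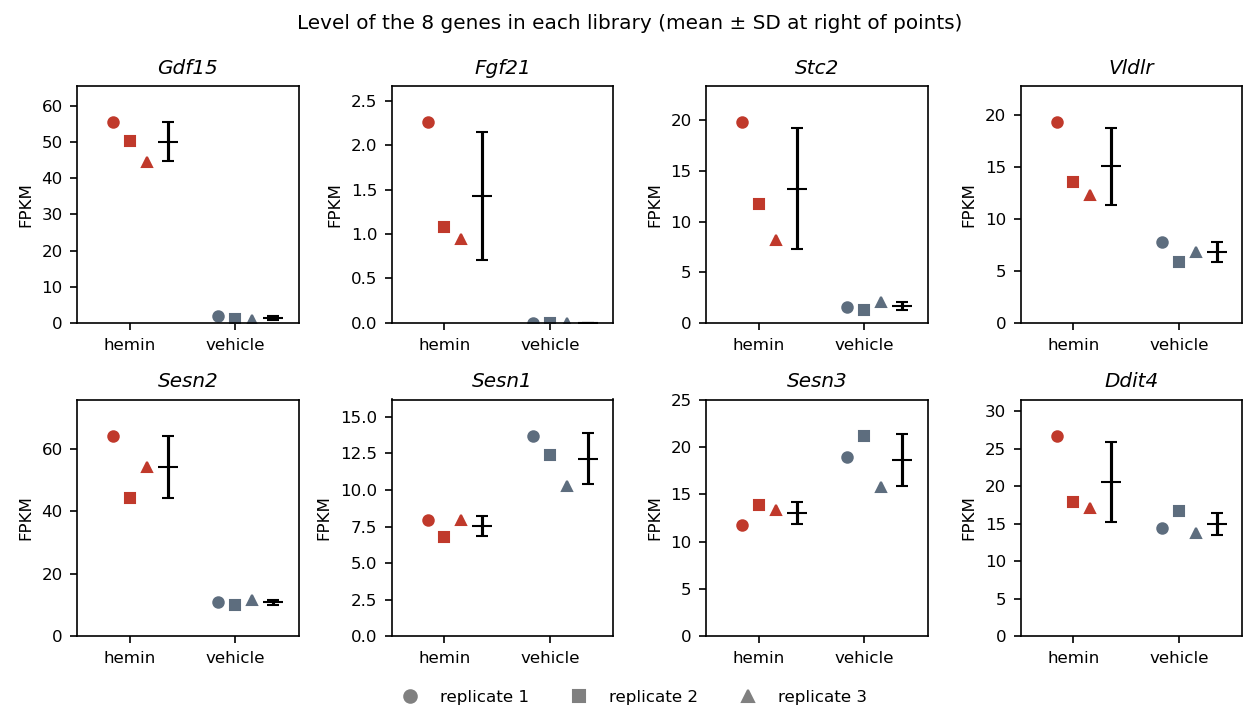
Level in FPKM (y axis, linear from 0, own scale per gene) of each of the 8 genes in the 3 hemin and 3 vehicle libraries, with the mean and SD beside the points. Hemin points sit above vehicle points for Gdf15, Fgf21, Stc2, Vldlr, Sesn2 and, narrowly, Ddit4, and below them for Sesn1 and Sesn3.

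Gdf15 (gene identifier 23886 in the files; chr8:70629393-70632095 in GENCODE vM21, GRCm38, as for the other members) encodes a distant member of the TGF-beta family that is released by stressed cells. It had 55.5, 50.3 and 44.6 FPKM in hemin replicates 1 to 3, against 1.85, 1.03 and 0.91 FPKM in vehicle replicates 1 to 3. Every hemin library was far above every vehicle library. The hemin values rest on 489, 436 and 384 counts and the vehicle values on 16, 9 and 8. At those vehicle counts Gdf15 passed the filter on low counts only through the hemin libraries. It was thus tested and ranked because it was high in that group. The log2 fold change was 5.36 ± 0.26 (SE, edgeR adjusted p = 0.000162), ranking 29 among the rises of the genes tested. Among genes with any signal in a library, Gdf15 stood at percentile 91.6 to 94.0 of the FPKM values with hemin and at percentile 26.6 to 33.8 with vehicle. Its receptor was close to absent in these cells. Gfral, the receptor that binds GDF15, had 1 count over the 3 hemin libraries and 0 over the 3 vehicle libraries. Ret, the receptor kinase that signals with it, had 25 counts over the hemin and 17 over the vehicle libraries, and neither passed the filter.

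Fgf21 (56636; chr7:45613886-45615490) encodes a hormone-like fibroblast growth factor known for its release by the liver in fasting and by muscle under mitochondrial stress. It had 2.26, 1.08 and 0.95 FPKM in hemin replicates 1 to 3, and was listed in no vehicle library, which was taken as 0. Signal was present in every hemin library, but at 17, 8 and 7 counts. Set against a floor of 3 counts over the vehicle group, the 32 counts over the hemin group stood 11.1-fold higher. This allows for counting error on the vehicle side only, so it is not a lower bound on the fold. An exact two-sided permutation test of its FPKM gave p = 0.1, the smallest that 3 against 3 samples allow. Without the filter on low counts edgeR called it (adjusted p = 0.00899).
The receptors of FGF21 were unevenly expressed. Fgfr1, the main FGF21 receptor kinase, stood at 21.8 ± 2.37 FPKM with hemin and 22.6 ± 4.18 with vehicle (SD, n = 3 each; edgeR adjusted p = 0.992). Fgfr3 fell 1.39-fold, to 11.5 ± 1.91 FPKM with hemin against 16.6 ± 1.40 with vehicle (edgeR adjusted p = 0.0344). That call was lost without hemin replicate 1 or 2 (edgeR adjusted p = 0.0503 and 0.0965) or vehicle replicate 1, 2 or 3 (0.124, 0.0569 and 0.0954). Fgfr2 was at 2.21 ± 1.02 FPKM with hemin and 1.38 ± 0.467 with vehicle (edgeR adjusted p = 0.17). Klb, the co-receptor beta-klotho, had 16 counts over the hemin and 5 over the vehicle libraries and was not tested, like Kl and Fgfr4.

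Stc2 (20856; chr11:31357307-31370074) encodes stanniocalcin 2, a secreted glycoprotein. It had 19.8, 11.7 and 8.21 FPKM in hemin replicates 1 to 3, against 1.58, 1.30 and 2.07 FPKM in vehicle replicates 1 to 3. All hemin libraries were above all vehicle libraries, with replicate 1 the highest by a wide margin. The log2 fold change was 3.07 ± 0.39 (SE, edgeR adjusted p = 0.00175), or 8.37-fold. The coefficient of variation was 44.9% among hemin libraries and 23.6% among vehicle libraries, against medians of 16.5% and 11.1% over all genes tested.
Of 7 tested genes around stanniocalcin, 1 rose and the median log2 fold change was 0.83. That median is the value of Igf2, which was not called (edgeR adjusted p = 0.479). Pappa, the protease PAPP-A that STC2 inhibits, rose 8.53-fold at a low level, to 0.463 ± 0.206 FPKM with hemin against 0.0567 ± 0.00577 with vehicle (edgeR adjusted p = 0.00243). That fold rests on 141 counts over the hemin and only 17 over the vehicle libraries. Pappa passed the filter on low counts through the hemin libraries only. Igfbp4, the binding protein that PAPP-A cuts, stood at 27.3 ± 6.52 FPKM with hemin and 25.0 ± 11 with vehicle (edgeR adjusted p = 0.708). Igf1r, the growth factor receptor downstream, was at 5.62 ± 0.185 FPKM with hemin and 6.07 ± 0.660 with vehicle (edgeR adjusted p = 0.722). Igf1, an insulin-like growth factor, was at 1.39 ± 0.0781 FPKM with hemin and 0.777 ± 0.294 with vehicle (edgeR adjusted p = 0.0614). Igf1 was called higher in DESeq2 alone (adjusted p = 0.0406). Stc1, the paralog of Stc2, was at 4.18 ± 1.95 FPKM with hemin and 2.34 ± 0.379 with vehicle (edgeR adjusted p = 0.0897) and was called higher without hemin replicate 3 (0.0345). The ratio of Stc2 to Stc1 was 3.11, 3.32 and 3.11 in hemin replicates 1 to 3, against 0.605, 0.681 and 0.825 in vehicle replicates 1 to 3. Stc2 was thus the higher of the pair in every hemin library and the lower in every vehicle library.

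The sestrins did not move together. Sesn2 (230784; chr4:132492032-132510501) encodes a leucine-sensing sestrin that stress induces. It had 64.1, 44.1 and 54.2 FPKM in hemin replicates 1 to 3, against 10.9, 10.04 and 11.7 FPKM in vehicle replicates 1 to 3. The vehicle libraries lay close together and every hemin library was far above them. The log2 fold change was 2.37 ± 0.17 (SE, edgeR adjusted p = 0.000241), or 5.18-fold. Sesn2 stood at percentile 91.7 to 94.8 of the FPKM values with hemin and 64.4 to 68.5 with vehicle.
Sesn1 (140742; chr10:41809935-41908424) encodes the sestrin best known as a p53 target. It had 7.92, 6.76 and 7.94 FPKM in hemin replicates 1 to 3, against 13.7, 12.4 and 10.3 FPKM in vehicle replicates 1 to 3. The groups did not overlap, with the hemin libraries below, and the log2 fold change was -0.63 ± 0.15 (SE, edgeR adjusted p = 0.0157). Without hemin replicate 2 (edgeR adjusted p = 0.0565), vehicle replicate 1 (0.0702) or vehicle replicate 2 (0.061) the call was lost.
Sesn3 (75747; chr9:14276301-14333101) encodes the sestrin known as a target of FoxO factors. It had 11.7, 13.9 and 13.4 FPKM in hemin replicates 1 to 3, against 19.0, 21.2 and 15.7 FPKM in vehicle replicates 1 to 3. Again the hemin libraries were all below the vehicle libraries, with a narrow gap between the highest hemin and the lowest vehicle library. The log2 fold change was -0.47 ± 0.14 (SE, edgeR adjusted p = 0.0397), a call lost without hemin replicate 1, 2 or 3 (edgeR adjusted p = 0.0689, 0.0744 and 0.0803) or vehicle replicate 1 or 2 (0.131 and 0.169).

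Summed over the 3 sestrins, FPKM was 83.8, 64.8 and 75.5 in hemin replicates 1 to 3, against 43.5, 43.7 and 37.7 in vehicle replicates 1 to 3. Sesn2 made up 76.6%, 68.1% and 71.7% of that sum in hemin replicates 1 to 3, against 25.0%, 23.0% and 31.0% in vehicle replicates 1 to 3. Sesn3 was the most abundant sestrin in every vehicle library and Sesn2 in every hemin library. The log2 ratio of Sesn2 to Sesn1 was 2.83 ± 0.16 with hemin and -0.15 ± 0.29 with vehicle (SD, n = 3 each), a difference of 2.98. The log2 ratio of Sesn2 to Sesn3 was 2.04 ± 0.40 with hemin and -0.77 ± 0.32 with vehicle, a difference of 2.81. For Stc2 over Stc1 the difference was 2.19. Each of these 3 ratios gave an exact two-sided permutation p of 0.1 (0.1 also after Benjamini-Hochberg adjustment over the 3), the smallest that the design allows, so no ratio could pass 0.05.

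**Figure D2:**
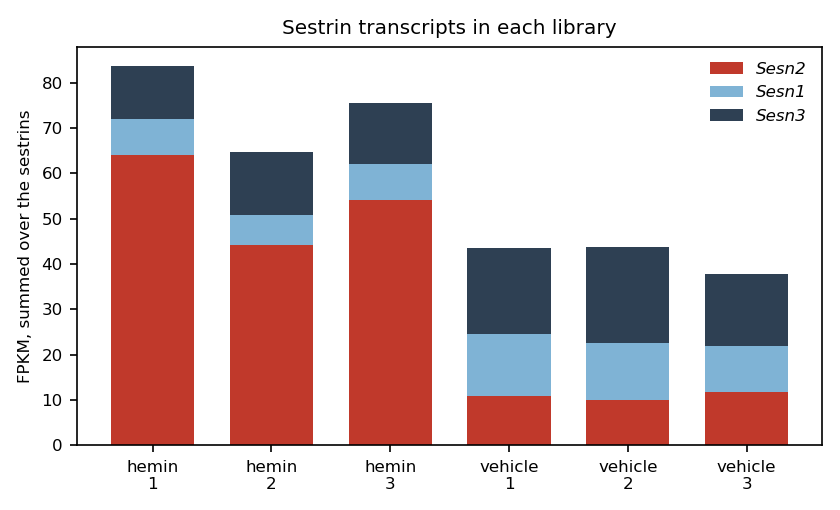
Summed FPKM of Sesn2, Sesn1 and Sesn3 (y axis, stacked from 0) in each of the 3 hemin and 3 vehicle libraries. The Sesn2 portion is 44.1 to 64.1 FPKM in the hemin bars and 10.04 to 11.7 FPKM in the vehicle bars, while the other 2 portions are smaller with hemin.

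The 2 annotated forms of Sesn1 share 9 of 10 exons and differ in their first exon, the starts lying 77504 bases apart on chromosome 10. The form with the upstream start had 3.92, 3.63 and 4.12 FPKM in hemin replicates 1 to 3, against 6.25, 6.3 and 5.82 FPKM in vehicle replicates 1 to 3. The form with the downstream start had 4.00, 3.13 and 3.82 FPKM in hemin replicates 1 to 3, against 7.45, 6.11 and 4.47 FPKM in vehicle replicates 1 to 3. Both forms were lower in every hemin library than in any vehicle library, and neither dominated. The upstream form held 49.5% to 53.7% of the Sesn1 level with hemin and 45.6% to 56.6% with vehicle. The split of reads between forms is RSEM's estimate and was not tested.

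Ddit4 (74747; chr10:59949669-59951834) encodes REDD1, the stress-induced inhibitor of mTORC1. It had 26.7, 17.9 and 17.1 FPKM in hemin replicates 1 to 3, against 14.5, 16.7 and 13.8 FPKM in vehicle replicates 1 to 3. Hemin replicate 1 stood apart, and the other 2 hemin libraries were barely above the highest vehicle library. The log2 fold change was 0.52 ± 0.21 (SE, edgeR adjusted p = 0.0997) and was 0.25 without hemin replicate 1. Its paralog was called. Ddit4l, which also holds back mTORC1, rose 2.84-fold, to 41.3 ± 7.24 FPKM with hemin against 15.01 ± 1.47 with vehicle (edgeR adjusted p = 0.000727). Ywhag, a 14-3-3 protein of the family that binds TSC2, rose 1.77-fold (edgeR adjusted p = 0.0027). The other 5 tested genes of that list were not called, among them Txnip, a partner of REDD1, at 9.23 ± 1.21 FPKM with hemin and 6.87 ± 1.40 with vehicle (edgeR adjusted p = 0.0846).

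Vldlr (22359; chr19:27217020-27254231 over its 2 forms) encodes the very low density lipoprotein receptor. It had 19.3, 13.5 and 12.3 FPKM in hemin replicates 1 to 3, against 7.81, 5.85 and 6.85 FPKM in vehicle replicates 1 to 3. All hemin libraries were above all vehicle libraries, replicate 1 again the highest. The log2 fold change was 1.20 ± 0.21 (SE, edgeR adjusted p = 0.00556), or 2.29-fold. The 2 forms in the files differ by 84 bases in length, the size of exon 16 of 19, which encodes the O-linked sugar region of the receptor and holds 28 codons with no base left over. That exon is printed, from the GENCODE vM21 transcripts on the coding strand, because only 1 of the forms holds it. The GENCODE models of the forms also differ in where they start and end.
Vldlr exon 16, plus strand, chr19:27246593-27246676: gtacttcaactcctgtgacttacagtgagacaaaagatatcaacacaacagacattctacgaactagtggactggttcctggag
The form without this exon had 9.58, 8.24 and 9.2 FPKM in hemin replicates 1 to 3, against 4.26, 3.08 and 4.27 FPKM in vehicle replicates 1 to 3. It was higher in each hemin library than in any vehicle library, with little spread. The form with the exon had 9.75, 5.30 and 3.11 FPKM in hemin replicates 1 to 3, against 3.55, 2.77 and 2.58 FPKM in vehicle replicates 1 to 3. Here hemin replicate 3 fell below vehicle replicate 1, so the groups overlapped. The form with the exon made up 50.4%, 39.1% and 25.3% of Vldlr in hemin replicates 1 to 3, against 45.5%, 47.4% and 37.7% in vehicle replicates 1 to 3. The shares are RSEM's estimates and were not tested.

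**Figure D3:**
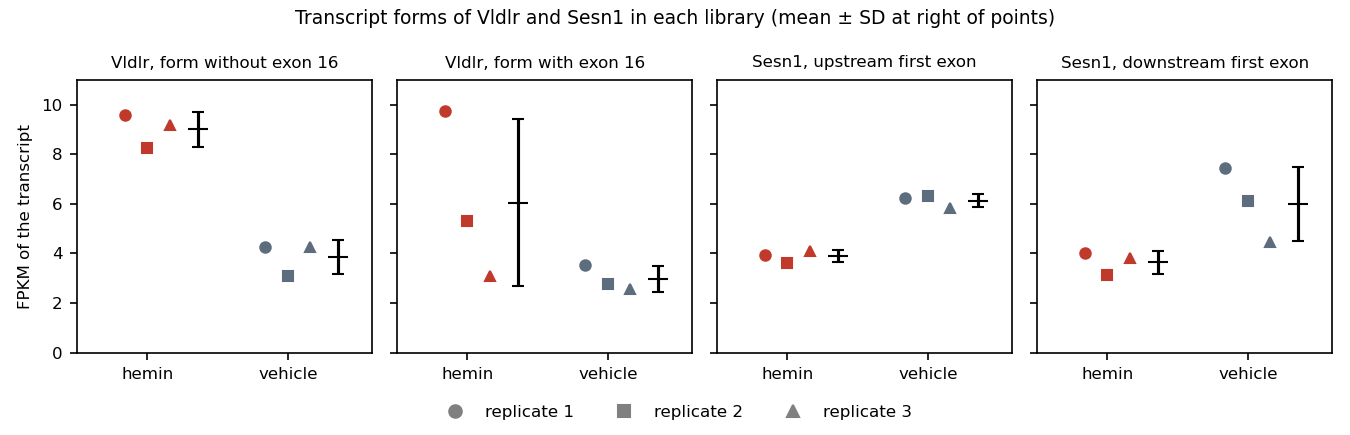
FPKM of the 2 annotated forms of Vldlr and of Sesn1 (y axis, linear from 0) in the 3 hemin and 3 vehicle libraries, with the mean and SD beside the points. The Vldlr form without exon 16 is at 8.24 to 9.58 FPKM in hemin libraries and 3.08 to 4.27 in vehicle libraries, the form with it spreads from 3.11 to 9.75 FPKM with hemin, and both Sesn1 forms are lower with hemin.

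Of 12 tested genes around VLDLR, 2 rose and 3 fell, and the median log2 fold change was -0.09. Mylip, the ubiquitin ligase that degrades VLDLR, rose 3.45-fold, to 2.83 ± 0.514 FPKM with hemin against 0.843 ± 0.156 with vehicle (edgeR adjusted p = 0.0027). Lpl, the lipase that loads such receptors with lipid particles, rose 1.62-fold (edgeR adjusted p = 0.00571). Dab1, the adaptor that carries the reelin signal into the cell, fell 1.41-fold (edgeR adjusted p = 0.0127). Lrp1, a scavenger receptor of the same family, fell 1.36-fold (edgeR adjusted p = 0.0452), and Crkl, an adaptor downstream of Dab1, 1.24-fold (0.0264). All 3 falls were lost without vehicle replicate 1 (edgeR adjusted p = 0.0649, 0.158 and 0.12) or vehicle replicate 2 (0.0696, 0.152 and 0.0849). Those of Lrp1 and Crkl were also lost without hemin replicate 2 (edgeR adjusted p = 0.129 and 0.0925) or hemin replicate 3 (0.104 and 0.0515), that of Crkl without vehicle replicate 3 (0.0744), and that of Dab1 in limma on log2(FPKM + 1) (0.0901) and on log2(FPKM + 0.1) (0.0934). Lrp8, the reelin receptor ApoER2, stood at 2.30 ± 0.897 FPKM with hemin and 3.71 ± 1.74 with vehicle (edgeR adjusted p = 0.277). Apoe, the apolipoprotein these receptors bind, was at 309 ± 128 FPKM with hemin and 298 ± 76.4 with vehicle (edgeR adjusted p = 0.856).

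Ordered by level, Sesn2 and Gdf15 led with hemin, at means of 54.1 ± 10 and 50.1 ± 5.45 FPKM (SD, n = 3), and their ranges overlapped. Ddit4 (20.6 ± 5.33), Vldlr (15.1 ± 3.75), Stc2 (13.2 ± 5.95) and Sesn3 (13.0 ± 1.15 FPKM) followed, each overlapping the next. Sesn1 (7.54 ± 0.676) and Fgf21 (1.43 ± 0.722 FPKM) came last, with Fgf21 below all others. With vehicle, Sesn3 (18.6 ± 2.75) and Ddit4 (14.96 ± 1.52 FPKM) came first and overlapped, then Sesn1 (12.1 ± 1.72) and Sesn2 (10.9 ± 0.815 FPKM), which also overlapped. The lowest Ddit4 value was just above the highest of Sesn1. Vldlr (6.84 ± 0.980 FPKM) was below them, and Stc2 (1.65 ± 0.390) and Gdf15 (1.26 ± 0.512 FPKM) overlapped near the bottom.
Hemin replicate 1 was the highest hemin library for 6 of the 8 members, as it was for 34.6% of all genes tested. Leaving it out moved the log2 fold change to 5.25 for Gdf15, 2.61 for Stc2, 2.20 for Sesn2 and 0.94 for Vldlr, all 4 still called by edgeR (adjusted p = 0.000328, 0.00176, 0.000339 and 0.00398).

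Over 5 lists of the machinery on which sestrins and REDD1 act, 10 of 50 tested genes rose and 7 fell, a share of 34% called against 31.9% over all genes. Of 13 tested GATOR and KICSTOR genes with their sensors, 2 rose, 3 fell and 8 were not called, with a median log2 fold change of -0.05. Of those 8, Depdc5 and Seh1l (edgeR adjusted p = 0.0662 and 0.0597) were each called lower under 3 alternatives. Wdr24 (edgeR adjusted p = 0.114) was called lower under 1. Castor2, a sensor protein that binds GATOR2 like the sestrins, fell 2.68-fold, to 1.45 ± 0.199 FPKM with hemin against 4.02 ± 0.0643 with vehicle (edgeR adjusted p = 0.00103). Bmt2, which encodes the sensor SAMTOR, rose 1.56-fold, to 18.3 ± 1.05 FPKM with hemin against 12.1 ± 0.604 with vehicle (edgeR adjusted p = 0.00474). Mios and Nprl2, subunits of GATOR2 and GATOR1, fell 1.49-fold and 1.63-fold (edgeR adjusted p = 0.0214 and 0.0336), and Sec13, a GATOR2 subunit shared with the nuclear pore, rose 1.26-fold (0.0499). Taking away vehicle replicate 1 ended those 3 calls (edgeR adjusted p = 0.0835, 0.0701 and 0.168), as did taking away vehicle replicate 2 (0.0671, 0.11 and 0.162). The calls of Nprl2 and Sec13 were also lost without hemin replicate 3 (edgeR adjusted p = 0.0847 and 0.117), that of Nprl2 without hemin replicate 1 (0.0646) or vehicle replicate 3 (0.105), and that of Sec13 without hemin replicate 2 (0.141). Sec13 also missed the threshold with totals alone (edgeR adjusted p = 0.138), without the filter (0.107) and in limma on log2(FPKM + 1) and log2(FPKM + 0.1) (0.082 and 0.0854).

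Of 13 Rag GTPase and Ragulator genes, 2 rose and 11 were not called, of which Rragb, a Rag GTPase (edgeR adjusted p = 0.0576), was called lower under 6 alternatives. Fnip1, the partner of folliculin, rose 2.54-fold, to 13.6 ± 3.52 FPKM with hemin against 5.58 ± 0.661 with vehicle (edgeR adjusted p = 0.00366). Flcn, folliculin itself, rose 1.56-fold (edgeR adjusted p = 0.0263), a call lost without hemin replicate 3 or vehicle replicate 1, 2 or 3 (0.06, 0.0723, 0.0764 and 0.0663). Of 5 genes of the TSC complex and Rheb, Rheb alone was called, 2.09-fold higher at 147 ± 12.5 FPKM with hemin against 73.2 ± 1.98 with vehicle (edgeR adjusted p = 0.000737). Tsc1 stood at 4.10 ± 2.22 FPKM with hemin and 6.90 ± 0.144 with vehicle (edgeR adjusted p = 0.23), and Tsc2, the subunit that acts on Rheb, at 11.7 ± 1.49 FPKM with hemin and 15.1 ± 1.04 with vehicle (0.0594). Tsc2 was called lower with totals alone, and Rhebl1, a relative of Rheb (edgeR adjusted p = 0.0559), was called lower under 4 alternatives.
Of 8 tested genes of the mTOR complexes, 2 rose and 2 fell. The kinase gene Mtor fell 1.41-fold, to 8.09 ± 0.536 FPKM with hemin against 11.8 ± 0.200 with vehicle (edgeR adjusted p = 0.00655). Mlst8, a subunit of both complexes, fell 1.76-fold (edgeR adjusted p = 0.00502). Akt1s1, the mTORC1 inhibitor PRAS40, rose 1.42-fold (edgeR adjusted p = 0.0142), a call lost without vehicle replicate 1 or 2 (0.0578 and 0.0603). Prr5l, a protein that binds mTORC2, rose 1.64-fold (edgeR adjusted p = 0.0241), lost without hemin replicate 2 or vehicle replicate 1, 2 or 3 (0.0673, 0.0516, 0.0638 and 0.0646).

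Among 11 genes of mTORC1 substrates, 3 rose and 2 fell, with a median log2 fold change of 0.03. Eif4ebp1, a repressor of cap-dependent translation that mTORC1 inactivates, rose 4.99-fold, to 124 ± 48.0 FPKM with hemin against 26.1 ± 4.44 with vehicle (edgeR adjusted p = 0.00179). Its paralog Eif4ebp2 fell 1.55-fold, to 24.8 ± 4.44 FPKM with hemin against 40.1 ± 1.17 with vehicle (edgeR adjusted p = 0.0197). The fall of Eif4ebp2 was lost without hemin replicate 2 or vehicle replicate 1, 2 or 3 (edgeR adjusted p = 0.0693, 0.054, 0.0546 and 0.0562). Grb10, an adaptor that dampens insulin signalling, rose 3.21-fold (edgeR adjusted p = 0.0184), lost without hemin replicate 2 (0.054). Rps6kb1, the S6 kinase, fell 1.30-fold, and Rps6, the ribosomal protein it phosphorylates, rose 1.33-fold (edgeR adjusted p = 0.0472 for each). Rps6 has many processed copies among which counting can lose reads. The call of Rps6kb1 was lost without hemin replicate 2 or 3 or vehicle replicate 1, 2 or 3 (edgeR adjusted p = 0.0916, 0.0955, 0.0708, 0.164 and 0.127). With RLE factors it also missed the threshold (edgeR adjusted p = 0.0502). The call of Rps6 was lost without hemin replicate 1 or 2 or vehicle replicate 1, 2 or 3 (edgeR adjusted p = 0.0634, 0.146, 0.145, 0.0917 and 0.0878), with totals alone (0.0912), without the filter (0.0803) and in limma on log2(FPKM + 1) and log2(FPKM + 0.1) (0.0547 and 0.0575).

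**Figure D4:**
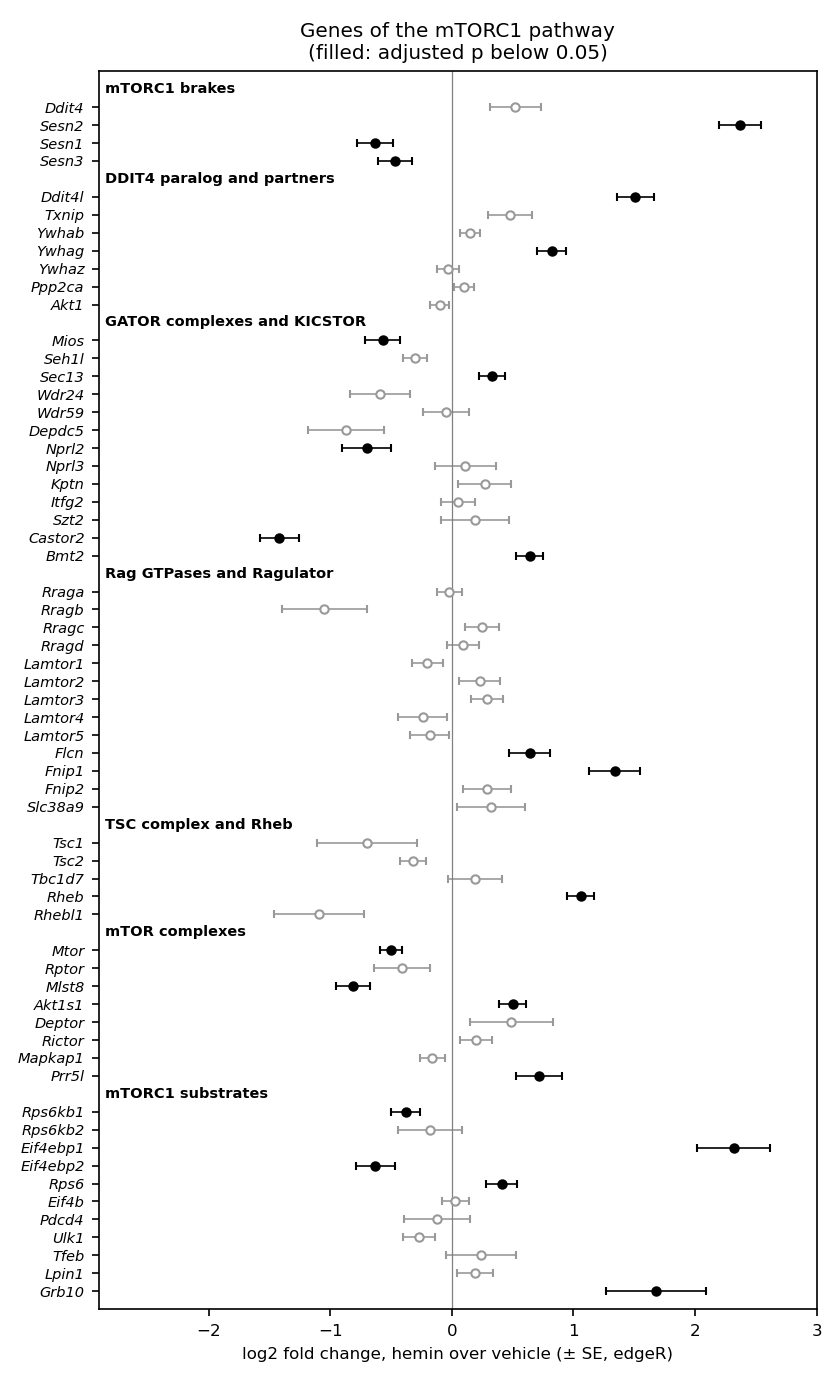
Log2 fold change of hemin over vehicle with its SE (x axis, edgeR) for Ddit4, the sestrins and the tested genes of 6 lists of the mTORC1 pathway, filled where the adjusted p is below 0.05. Sesn2 and Eif4ebp1 lie farthest to the right, at 2.37 and 2.32, and Castor2 farthest to the left, at -1.42.

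Sestrins also bind AMPK, the energy-sensing kinase, and proteins of the peroxide defence. Of 7 AMPK genes, 1 rose and 2 fell. Prkaa2, a catalytic subunit, rose 1.94-fold (edgeR adjusted p = 0.00869). Prkag2, a regulatory subunit, and Stk11, the upstream kinase LKB1, fell 1.36-fold and 1.37-fold (edgeR adjusted p = 0.0363 and 0.0345). Both falls were lost without hemin replicate 3 (edgeR adjusted p = 0.0872 and 0.0853), vehicle replicate 1 (0.149 and 0.0918) or vehicle replicate 2 (0.133 and 0.112). That of Prkag2 was also lost without hemin replicate 1 (edgeR adjusted p = 0.0611), and that of Stk11 without hemin replicate 2 (0.108) or vehicle replicate 3 (0.0685). Of 7 redox partners, 4 rose: Srxn1, the sulfiredoxin that restores peroxiredoxins, 16.7-fold, to 307 ± 61.8 FPKM with hemin against 19.0 ± 9.95 with vehicle (edgeR adjusted p = 0.000607), the autophagy receptor Sqstm1 (9.94-fold, 0.000199), the peroxiredoxin Prdx1 (2.07-fold, 0.00153) and Nfe2l2, which encodes NRF2 (2.25-fold, 0.00182). Keap1, the NRF2 inhibitor that Sqstm1 and Sesn2 bind, stood at 13.9 ± 2.33 FPKM with hemin and 14.1 ± 1.31 with vehicle (edgeR adjusted p = 0.979).

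The genes most like each called member were sought by the root mean square difference of log2 CPM, each gene centred on its own mean, over the 6 libraries. For Sesn2 they were Ccdc85b (difference 0.05), higher by 2.30 on the log2 scale, and Ier2 (0.10), higher by 2.35. For Stc2 they were Nupr1 (0.18), an ATF4 target, and Crybg1 (0.19). Vldlr was most like Itpripl2 (0.06) and Sntb2 (0.07), Sesn1 most like Ercc6l (0.04) and Cdkn2d (0.06), and Sesn3 most like St6gal1 and Myt1l (0.05 each). None of the genes searched came as close to Gdf15. The nearest were Rbm15 (0.42), with 252 counts over the hemin and 0 over the vehicle libraries, and Ampd1 (0.43), with 209 and 1. Their edgeR log2 fold changes were 9.42 and 7.30, against 5.36 for Gdf15, so this closeness did not extend to the fold change. With 6 libraries in 2 groups, this measure is led by the difference between the groups.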

How the data were processed

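RNA-seq libraries of 3 hemin and 3 vehicle samples of OPCs were analysed, grouped by their titles. Per the file headers, the columns deposited by the authors are an expected count per transcript, which need not be whole, and FPKM, which the authors scaled by transcript length and library size. Bowtie 0.12.2, RSEM and the builds mm8 and mm9 are named, without a role, per the submitters' processing notes. Annotation release, trimming and strandedness: not given in the sources used here. No gene on the opposite strand overlaps a member in GENCODE vM21, but 1 gene on the same strand overlaps Sesn1 and another overlaps Sesn2, so reads there could belong to either. Every listed transcript had a count above 0, and a gene absent from a library's table was taken as 0. Transcripts were summed to 18743 genes, of which 18711 had a RefSeq symbol (GRCm38.p6). Library totals cover these genes only.

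Rounded expected counts were tested with edgeR 4.0.16 in R 4.3.3 (filterByExpr, TMM, glmQLFit, glmQLFTest, two-sided, Benjamini-Hochberg adjustment over 12779 genes, no covariates). A gene was called at adjusted p below 0.05. The SE is the log2 fold change divided by the square root of F, and the biological coefficient of variation was 0.208. The filter can be passed through 1 group alone. The floor for Fgf21 covers counting error of the vehicle group only, not the error of the hemin counts. Reads copied by PCR are not independent molecules where no molecular identifier marks them. Alternatives used DESeq2 1.42.0, limma 3.58.1 on log2(FPKM + 1) or log2(FPKM + 0.1), other scaling and filters, a replicate block, and each library left out. The tests were checked on simulated data. Chi-square over degrees of freedom between libraries of a group was 5.44 to 23.5, above counting noise.

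The members and lists were chosen with earlier results of these data known. Named are all members, genes of their receptor and partner lists, in each other list up to 3 called genes with the smallest p and the largest called change against its majority, and 2 genes most like each called member. Sec13, Nprl2, Prr5l, Rps6, Rps6kb1, Nfe2l2, Keap1, Tsc1, Tsc2, Hif1a, Foxo1, Foxo3, Ldha, Psat1, Rragb, Rhebl1, Shmt2, Sars, Slc7a5, Eda2r, Fkbp5, Ccng2 and Tsc22d3 were named after their values were seen. Igf1, Igf2, Pecam1, Kdr, Tek, Cldn5, Cdh5, Depdc5, Seh1l and Wdr24 were also named after their values were seen. Tables of unannotated features were not used. Protein sequences were not used here.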

Additional observations from a re-analysis of the deposited data

How the results depend on the processing

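The count of members called stayed within 5 to 7 under the 8 alternatives of scaling, tool, filter and block. With 1 library left out it ranged from 4 to 6, the 4 being Gdf15, Stc2, Sesn2 and Vldlr. Those 4 kept their call under all 14 alternatives, with log2 fold changes of 4.52 to 5.74 for Gdf15, 2.35 to 3.33 for Stc2, 2.20 to 2.50 for Sesn2 and 0.94 to 1.34 for Vldlr. Sesn1 lost its call under 3 and Sesn3 under 6 of the 14, in each case without a change of direction. Ddit4 was called under none of the 14, with a log2 fold change of 0.25 to 0.65 and adjusted p-values of 0.0647 to 0.208. Genes called in all ranged from 2551 to 4530 with 1 library left out. Calls among the context lists (72) ranged from 50 to 73 in the same way, and without vehicle replicate 1 or 2 the lower ones among them dropped to 3, against 16 with all libraries. Of the 72, 48 kept their call throughout and 24 lost it under at least 1 alternative, while 18 genes of the lists that were not called gained a call under at least 1. The differences in log2 ratio ranged from 2.89 to 3.15 for Sesn2 over Sesn1, 2.61 to 3.00 for Sesn2 over Sesn3 and 2.09 to 2.31 for Stc2 over Stc1 with 1 library left out.

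Equal replicate numbers share a number but no stated culture. Deviations of same-numbered samples from their group means correlated at 0.0631, 0.1 and 0.157 across genes. With the replicate number as a block 5 members and 3728 genes were called, and Sesn3 was not (edgeR adjusted p = 0.0541). Sec13, Rps6, Rps6kb1 and Stk11 also missed the threshold with the block (edgeR adjusted p = 0.0522, 0.0577, 0.0761 and 0.0507), as did Shmt2 and Ccng2 (0.0568 and 0.088). Depth limits Fgf21 and the receptors Gfral, Ret and Klb, which rest on few counts.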

Other observations

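Tested transcripts of transcription factors known to act on these genes were higher with hemin or not called. Protein or activity of the factors was not measured. Of 9 tested, 3 rose with hemin: Ddit3, which encodes CHOP, 15.3-fold to 104 ± 19.1 FPKM against 7.17 ± 1.69 with vehicle, Atf4 3.09-fold to 194 ± 28.0 against 65.1 ± 15.6, and Trp53, which encodes p53, 1.5-fold to 60.8 ± 3.09 against 42.2 ± 1.57 (SD, n = 3 each; edgeR adjusted p = 0.000191, 0.0013 and 0.00338). Hif1a, the hypoxia-inducible factor whose known targets include Ddit4 and Vldlr, stood at 52.5 ± 3.18 FPKM with hemin and 49.0 ± 2.84 with vehicle (edgeR adjusted p = 0.224). Foxo1 was at 6.77 ± 0.616 FPKM with hemin and 4.92 ± 0.882 with vehicle (edgeR adjusted p = 0.0538). It was called higher in DESeq2 (adjusted p = 0.0341) and by edgeR without vehicle replicate 3. Foxo3 was listed in no hemin library and had 10 counts over the vehicle libraries.

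Called targets of these factors outside the 8 genes were all higher in the ATF4, p53 and hypoxia lists. Those of FoxO factors and glucocorticoids went both ways. Of 16 ATF4 targets, 15 rose and Psat1, of serine synthesis, was not called, with a median log2 fold change of 1.65. Slc7a11 and Slc3a2, the subunits of the cystine importer, rose 28.2-fold and 4.47-fold, and Ppp1r15a, which ends the translation block of the stress response, 18.7-fold (edgeR adjusted p = 0.000199, 0.000504 and 0.000191). The calls of Shmt2, Sars and Slc7a5 were lost without vehicle replicate 1 (edgeR adjusted p = 0.106, 0.0544 and 0.0838) or vehicle replicate 2 (0.1, 0.0604 and 0.0875), and Shmt2 was lost under 8 of the 14 alternatives in all. Of 13 p53 targets, 8 rose and none fell, with a median of 1.15, among them the cell cycle inhibitor Cdkn1a (5.11-fold), the death receptor Fas (4.85-fold) and the p53 ligase Mdm2 (3.79-fold; edgeR adjusted p = 0.000855, 0.00163 and 0.00173). Eda2r, a receptor gene, no longer passed without vehicle replicate 1 (edgeR adjusted p = 0.0852) or vehicle replicate 2 (0.0833). Of 14 tested hypoxia targets, 6 rose and none fell, with a median of 0.61. Slc2a1, the glucose transporter GLUT1, rose 3.58-fold, Adm, the peptide adrenomedullin, 4.97-fold and P4ha1, a collagen prolyl hydroxylase, 2.07-fold, while Ldha, the lactate dehydrogenase, stood at 184 ± 30.3 FPKM with hemin and 186 ± 7.15 with vehicle (edgeR adjusted p = 0.841). Of 10 tested targets of FoxO factors and glucocorticoids, 4 rose and 3 fell, with a median of -0.07. Sgk1, a kinase induced by glucocorticoids, rose 3.58-fold, Fbxo32, a FoxO target of muscle wasting, 4.6-fold, and the clock gene Per1 3.71-fold, while Pik3ip1, an inhibitor of PI3 kinase, fell 1.78-fold (edgeR adjusted p = 0.0267). The fall of Pik3ip1 was lost without hemin replicate 2 or 3 or vehicle replicate 1, 2 or 3 (edgeR adjusted p = 0.0609, 0.0502, 0.0683, 0.0908 and 0.0599). The other 2 falls, Fkbp5 and Ccng2, were also lost without vehicle replicate 1 (edgeR adjusted p = 0.053 and 0.138) or vehicle replicate 2 (0.0628 and 0.184), so that no fall was left. Fkbp5 was lost without vehicle replicate 3 as well (edgeR adjusted p = 0.0519), and Ccng2 without hemin replicate 1, 2 or 3 (0.0799, 0.132 and 0.071). The rise of Tsc22d3 was lost without hemin replicate 2 or vehicle replicate 2 or 3 (edgeR adjusted p = 0.0638, 0.0685 and 0.0554). The share of all genes tested that was called stands beside the counts of members above. None of these lists was tested as a set.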
